A study of Mus musculus with 11 samples.

Results

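The genes described here are those encoded by mitochondrial DNA, chosen as all genes whose symbol begins with mt- after the Ensembl identifiers of the count tables were matched to symbols. They number 37 of the 37310 gene identifiers counted: 13 protein genes, 2 rRNA genes and 22 tRNA genes. RNA was sequenced in 11 libraries of mouse intestinal organoids, epithelial structures that grow from crypts in a basement membrane gel. The libraries are successive passages of cultures from 2 animals. All cultures carried the Lgr5-EGFP-IRES-creERT2 genotype, a knock-in that marks intestinal stem cells with green fluorescent protein and gives them an inducible Cre recombinase. The early group (n = 5) was passages 2, 3 and 4 of mouse_283 and passages 2 and 4 of mouse_285, and the late group (n = 6) was passages 11, 12 and 13 of both animals, with a passage every 7 days. Passages are those of the sample titles, and the file names give numbers that are 1 higher throughout. The design names animals of 4 and 24 months without tying either age to an animal, and the study asks how age and long culture change the organoids. Each library is thus 1 passage from 1 of 2 animals, and passages of the same animal are repeated measures, not independent cultures. The p-values measure the spread between these libraries, which may be partly technical.

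Mitochondrial DNA is a small circle that is transcribed from both strands into long precursors. The precursors are cut, mostly at the tRNAs that lie between the other genes, into messenger RNAs, rRNAs and tRNAs. The proteins are core subunits of the respiratory chain and of ATP synthase, and the other subunits, the ribosomal proteins and the transcription machinery come from nuclear genes. In the intestinal crypt, stem cells and their absorptive progeny are known to depend on mitochondrial respiration to different degrees.

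Each library held 15114132 to 28949911 reads counted in genes. The summed level of 10 epithelial markers was 6888 to 9058 CPM, a unit of reads scaled to the total of gene reads in the library. Immune markers summed to at most 24.3 CPM and mesenchymal markers to at most 20.2 CPM, with Dcn at 0 throughout. Endothelial markers summed to at most 2.58 CPM with Kdr at 0. The label of epithelium therefore held in all 11 libraries. The log2 level of each nuclear gene was also taken relative to its own mean over the 11 libraries. In passages 3 and 4 of mouse_283, both early, these relative levels increased by 0.976 and 0.779 for every 10 points of GC. The slope lay between -0.41 and 0.20 in the remaining libraries. The 13 protein genes have 31.9% to 41.1% GC in GENCODE M21, and 8.45% of the tested genes are at or below 41.1%. Results are therefore also given without these 2 libraries and with offsets for GC content and length.

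Mitochondrially encoded reads made up 1.05% to 6.04% of gene reads. Among the early libraries of mouse_283 the share was 5.10% at passage 2, 1.05% at passage 3 and 2.32% at passage 4. In mouse_285 the early shares were 3.81% at passage 2 and 2.44% at passage 4. The late shares ran from 3.32% to 6.04% with a median of 4.81%. Passage 3 of mouse_283 was the lowest of all 11 libraries, and its passage 2 lay above 4 of the 6 late libraries. Stages overlapped within mouse_283. Within mouse_285 all 3 late shares (5.06%, 6.04% and 3.94%) were above both early shares. The median share was 2.37 percentage points higher late, and 0.998 points higher without passages 3 and 4 of mouse_283. The widest 95% Wilson interval of a share extended 0.012 points to either side and covers counting error only, and the differences between libraries were larger. In bulk RNA, more transcripts per cell and a larger part of cells rich in them cannot be told apart.

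**Figure D1:**
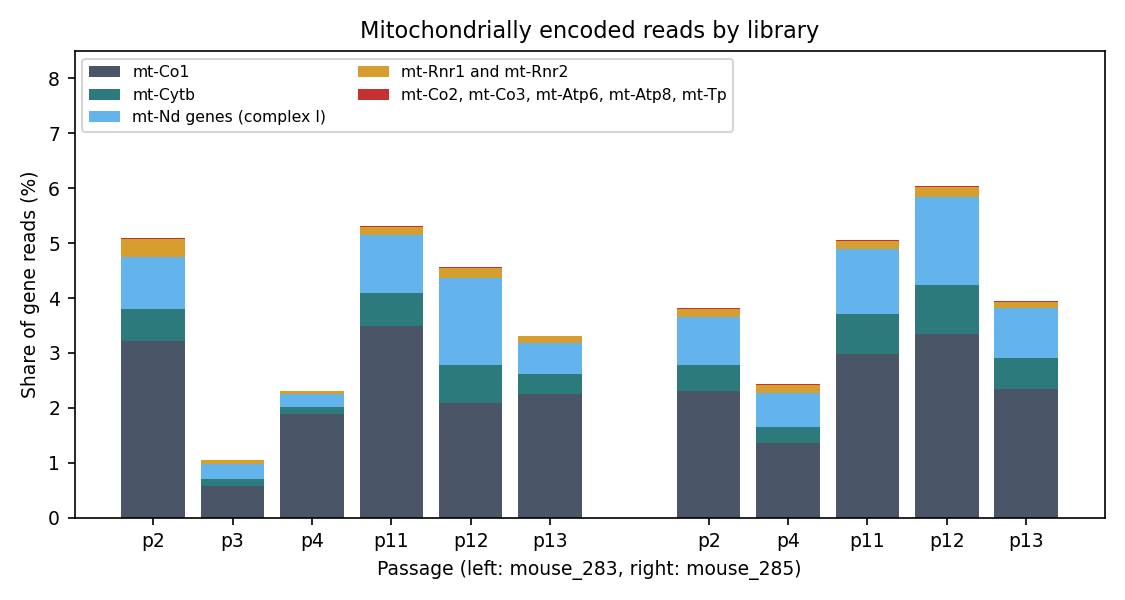
Bars give the share of gene reads (%) from mitochondrially encoded genes in each of the 11 libraries, stacked by gene group, by passage and animal. The total is lowest in passage 3 of mouse_283 (1.05%) and highest in passage 12 of mouse_285 (6.04%), and mt-Co1 is the largest part of every bar.

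Reads of the subunits of complex IV, the cytochrome c oxidase that passes electrons to oxygen, were 45.9% to 81.6% of all mitochondrially encoded reads, nearly all of them from mt-Co1, its catalytic subunit. Per kilobase of gene, mt-Co1 averaged 15210 CPM over the 11 libraries. The next highest were mt-Nd1, a subunit of complex I (NADH dehydrogenase), at 4472 CPM per kilobase, and mt-Cytb, cytochrome b of complex III, at 4324. These neighbours in the order did not differ beyond their spread, since mt-Nd1 ran from 1159 to 7575 and mt-Cytb from 1114 to 7690 CPM per kilobase. The complex I subunits mt-Nd2, mt-Nd4, mt-Nd5 and mt-Nd6 averaged 1485, 916, 835 and 651 CPM per kilobase. The rRNAs mt-Rnr1 of the small ribosomal subunit and mt-Rnr2 of the large subunit averaged 686 and 533.5. By these means mt-Rnr1 lay below 6 and mt-Rnr2 below 7 of the 13 protein genes. Whether the libraries were made by selection of messenger RNA or by depletion of rRNA is not given in the sources used here.

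The 6 protein genes that follow each other from mt-Co2 to mt-Nd4l had the lowest levels. Per kilobase, the complex IV subunits mt-Co2 and mt-Co3 averaged 48.5 and 44.5 CPM. The ATP synthase subunits mt-Atp6 and mt-Atp8 averaged 20.5 and 4.4 CPM per kilobase, and the complex I subunits mt-Nd3 and mt-Nd4l 13.7 and 3.99. All 6 together gave 0.105% to 0.382% of mitochondrially encoded reads per library, 828 to 4625 reads. The genes just outside this stretch on either side, mt-Co1 and mt-Nd4, were at 15210 and 916 CPM per kilobase. All protein genes but mt-Nd6 are transcribed in the same direction.

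**Figure D2:**
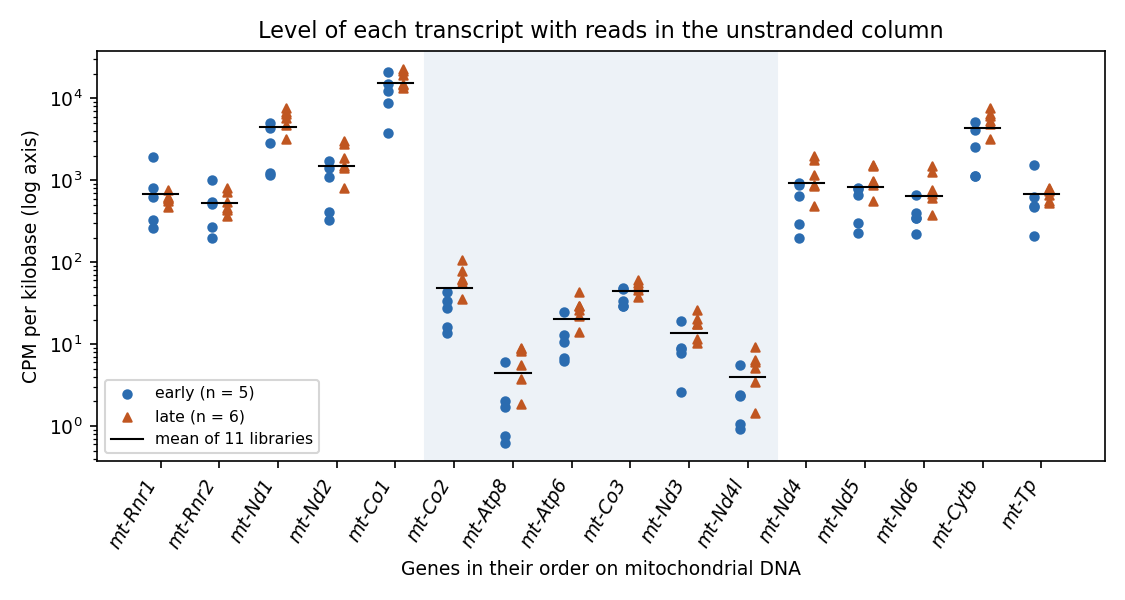
Points give the CPM per kilobase (log axis) of the 16 genes with reads in the unstranded column, in their order on mitochondrial DNA, for each early (circles) and late (triangles) library, with the mean as a line. The shaded genes from mt-Co2 to mt-Nd4l average 3.99 to 48.5 CPM per kilobase, while each of the others averages 533.5 or more.

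This stretch has a near-identical copy in the nuclear genome. GENCODE M21 transcripts (GRCm38, a later build than the mm9 of the files) were searched with BLASTN for at least 200 aligned bases and 95% identity. Any matches on 1 chromosome, which was not 1, 2 or 13, were set aside before counting, and their number was not recorded. The rest paired 9 of the 37 genes with 11 nuclear pseudogenes, 7 of them on chromosome 1. These counts may therefore be partial. The chromosome 1 pseudogenes match mt-Co2 over 681 of 684 bases, mt-Atp6 over 678 of 681, mt-Co3 over 783 of 784 and mt-Nd4l over 294 of 297, each at 100%, and mt-Nd3 over 345 of 348 at 99.7%. They also match the first 876 of 1378 bases of mt-Nd4 at 100% and bases 1063 to 1545 of mt-Co1 at 99.8%. Of the 7, only Gm10222, the copy of mt-Nd4l, has a row in the count tables, at 0.781 to 4.87 CPM. Another copy of mt-Co2, Gm13341 on chromosome 2, differs from it at 16 bases and 1 gap. The 60 bases from position 445 of mt-Co2, counted from 1 at its 5′ end, show how the copies differ. Capitals mark the bases where any of the 3 sequences differ.
mt-Co2: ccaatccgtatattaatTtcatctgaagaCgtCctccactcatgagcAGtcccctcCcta
Gm28661: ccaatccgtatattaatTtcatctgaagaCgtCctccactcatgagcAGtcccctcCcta
Gm13341: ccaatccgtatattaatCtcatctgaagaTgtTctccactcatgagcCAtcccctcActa
The chromosome 1 copy Gm28661 has no difference here, and Gm13341 has 6 (T462C, C474T, C477T, A492C, G493A and C501A). On chromosome 1, the copies of mt-Nd3 and of the end of mt-Co1 have 1 difference each, T3C and A1066T.
mt-Nd3: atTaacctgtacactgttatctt
Gm28438: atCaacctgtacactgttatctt
mt-Co1: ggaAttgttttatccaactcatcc
Gm29216: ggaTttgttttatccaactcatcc
STAR counts a read in a gene only where it maps to a single place, so values of these genes are uncertain in level. The part of the copies in the low levels was not tested. Gm13341 was counted at 2.66 to 32.3 CPM, next to 9.39 to 72.2 CPM for mt-Co2 itself. Gm13340, a chromosome 2 copy of the whole of mt-Co1 with 37 mismatches, was counted at 11.7 to 209.7 CPM, next to 5822 to 34880 CPM for mt-Co1. The other pairs were Gm13339 with 510 bases of mt-Nd2 and Gm4076, on chromosome 13, with 954 bases of mt-Nd5.

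mt-Atp8 and mt-Atp6 share 43 bases in different reading frames, given here with the start codon of mt-Atp6 and the stop codon of mt-Atp8 in capitals.
shared stretch: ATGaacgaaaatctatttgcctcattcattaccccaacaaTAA
A read that touches both genes is ambiguous and is counted in neither, which bears on mt-Atp8, a gene of 204 bases whose level was 0.129 to 1.83 CPM.

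Late against early, mt-Co2 was the only gene of the 16 that could be tested to pass the threshold, and it rose. Its level in the early libraries was 18.9, 11.0 and 9.39 CPM at passages 2, 3 and 4 of mouse_283 and 22.8 and 29.6 CPM at passages 2 and 4 of mouse_285. In the late libraries it was 24.1 to 72.2 CPM with a median of 42.2. Every late library was above every early library of the same animal, while passage 13 of mouse_283 was below passage 4 of mouse_285. The early mean was 18.3 ± 8.39 CPM (SD, n = 5) and the late mean 45.6 ± 16.2 CPM (SD, n = 6). The log2 change was 1.21 (SE 0.30, adjusted p = 0.0478, edgeR's quasi-likelihood test), or 2.31-fold. The rise was 0.47 with GC and length offsets (adjusted p = 0.151), and 0.92 (adjusted p = 0.0849) when passages 3 and 4 of mouse_283 were left out, so that the call was lost in both. When each library was left out in turn the call held in 1 of 11 fits, that without passage 2 of mouse_283 (log2 1.24, adjusted p = 0.0191), in which 34.7% of all genes passed. The change ran from 0.94 to 1.40 over the 11. Across all genes 432 of 14172 passed (3.05%), 100 of them higher late (0.706%), beside which stands the 1 of 16 members.

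The other 12 protein genes had positive estimates that did not pass, from 0.26 to 1.39 on the log2 scale. The median over all 13 protein genes was 0.89 and that over the 16 tested members 0.86, against -0.02 over all tested genes, of which 48.6% were positive. An unadjusted p below 0.05 was found for 10 of the 16 members and for 23.6% of all genes. With GC and length offsets the median of the protein genes was 0.28, with 11 of 13 positive, and that of all genes -0.15. It was 0.51 without passages 3 and 4 of mouse_283, where 13 of 13 were positive. With library totals alone as the scale, the median of all genes moved to 0.11 and that of the protein genes to 0.97. These 13 genes come from shared precursors and the same libraries, so their count in a direction is not a count of independent results.

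By complex, the 7 complex I genes had log2 estimates from 0.73 (mt-Nd3, adjusted p = 0.189) to 0.99 (mt-Nd6, adjusted p = 0.134). mt-Nd1 was 4755, 1166 and 1109 CPM at passages 2, 3 and 4 of mouse_283, 4162 and 2735 CPM at passages 2 and 4 of mouse_285, and 3028 to 7249 CPM with a median of 5852 in late libraries. Passages 3 and 4 of mouse_283 were the lowest of all libraries, and its passage 2 was within the late range. The estimate for mt-Nd1 was 0.89 (SE 0.34, adjusted p = 0.157). mt-Cytb, the complex III gene, gave 0.89 (SE 0.35, adjusted p = 0.162). Its level was 2877 to 4696 CPM in the early and 5625 to 8798 CPM in the late libraries of mouse_285, with no overlap, and 1275 to 5829 against 3617 to 6983 CPM in mouse_283, where the stages overlapped.

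mt-Co1 was 32190, 5822 and 18850 CPM at passages 2, 3 and 4 of mouse_283, 23110 and 13570 CPM at passages 2 and 4 of mouse_285, and 20820 to 34880 CPM with a median of 26600 in late libraries. Its estimate was 0.48 (SE 0.31, adjusted p = 0.337), and -0.01 with GC and length offsets. That of mt-Co3 was 0.26 (SE 0.20, adjusted p = 0.401), and -0.51 with the offsets. The ATP synthase genes mt-Atp6 and mt-Atp8 had estimates of 1.06 (SE 0.33, adjusted p = 0.0994) and 1.39 (SE 0.52, adjusted p = 0.149). That of mt-Atp8 rested on 2 to 53 reads per library. mt-Atp6 was 7.34, 4.61 and 4.24 CPM in the early libraries of mouse_283 and 9.59 to 29.4 CPM in its late ones, and 8.84 and 17.0 CPM early against 17.6 to 19.9 CPM late in mouse_285. Stages did not overlap for mt-Atp6 within either animal. DESeq2 passed mt-Co2 (adjusted p = 0.00299) and mt-Atp6 (adjusted p = 0.0244), beside 9.48% of all genes.

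**Figure D3:**
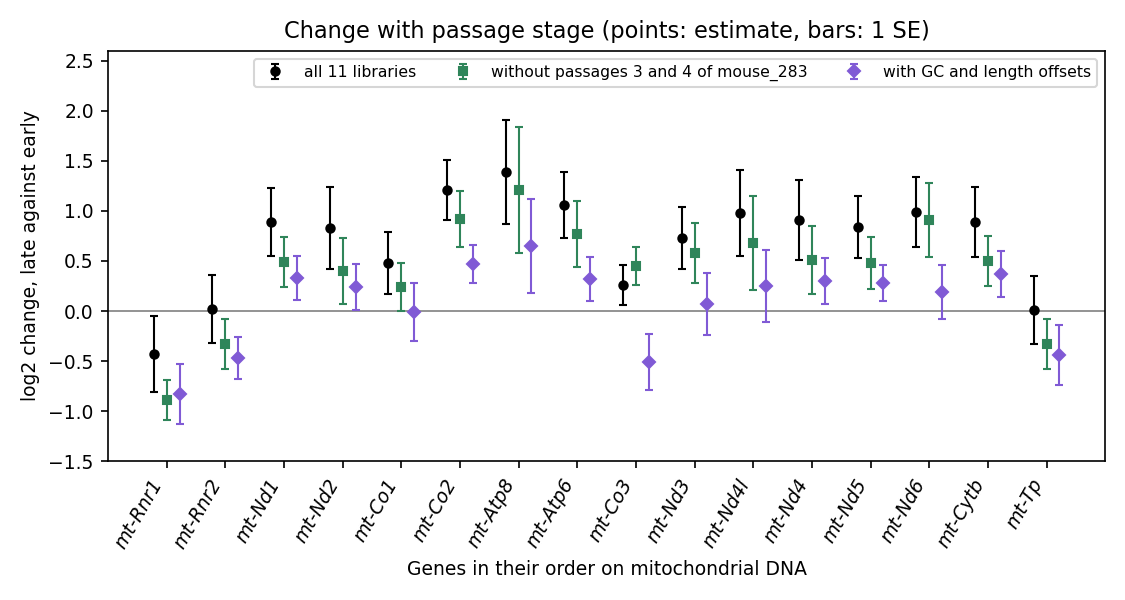
Points give the log2 change late against early with 1 SE (bars) for the 16 tested genes, in all 11 libraries (circles), without passages 3 and 4 of mouse_283 (squares) and with GC and length offsets (diamonds). For all 11 libraries the 13 protein genes lie between 0.26 and 1.39, and mt-Rnr1 at -0.43.

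Neither rRNA passed, and their estimates were below those of all 13 protein genes. mt-Rnr1 was 1815, 313 and 249 CPM at passages 2, 3 and 4 of mouse_283, 596 and 772 CPM at passages 2 and 4 of mouse_285, and 447 to 725 CPM with a median of 579 in late libraries. Passage 2 of mouse_283 stood above all others, and the 2 passages after it were the lowest. Passage 2 of mouse_283 also had 11.7% of its reads in no gene, against 3.77% to 6.64% in the other libraries, and the lowest unmapped share, 4.76%. The part of this in its levels was not tested. The log2 estimate was -0.43 (SE 0.38, adjusted p = 0.469). Without passages 3 and 4 of mouse_283, mt-Rnr1 fell by 0.89 on the log2 scale (SE 0.20, adjusted p = 0.0198, with 4.76% of all genes passing), and without passage 2 of mouse_283 the estimate was 0.15 (SE 0.26, adjusted p = 0.673). The direction thus turned with the early libraries of 1 animal. mt-Rnr2 gave 0.02 (SE 0.34, adjusted p = 0.97), with an early mean of 801.7 ± 504 CPM (SD, n = 5) and a late mean of 879 ± 273 CPM (SD, n = 6).

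Ratios of reads within a library do not depend on how libraries are scaled. There were 0.382, 0.268 and 0.225 reads of mt-Rnr1 per read of mt-Nd1 at passages 2, 3 and 4 of mouse_283, and 0.131, 0.0868 and 0.197 at its passages 11, 12 and 13. In mouse_285 the ratio was 0.143 and 0.282 at passages 2 and 4, and 0.0869, 0.0810 and 0.0974 at passages 11, 12 and 13. Late ratios were below the early ones within each animal, without overlap, while passage 13 of mouse_283 was above passage 2 of mouse_285. The ratio was chosen after its values were seen and was not tested. In the same libraries mt-Co1 gave 2.98 to 6.23 reads per read of mt-Cytb, except for passage 4 of mouse_283 with 14.8. That library had a level of mt-Co1 of 18850 CPM, within the range of the others, and 1275 CPM of mt-Cytb, the lowest.

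**Figure D4:**
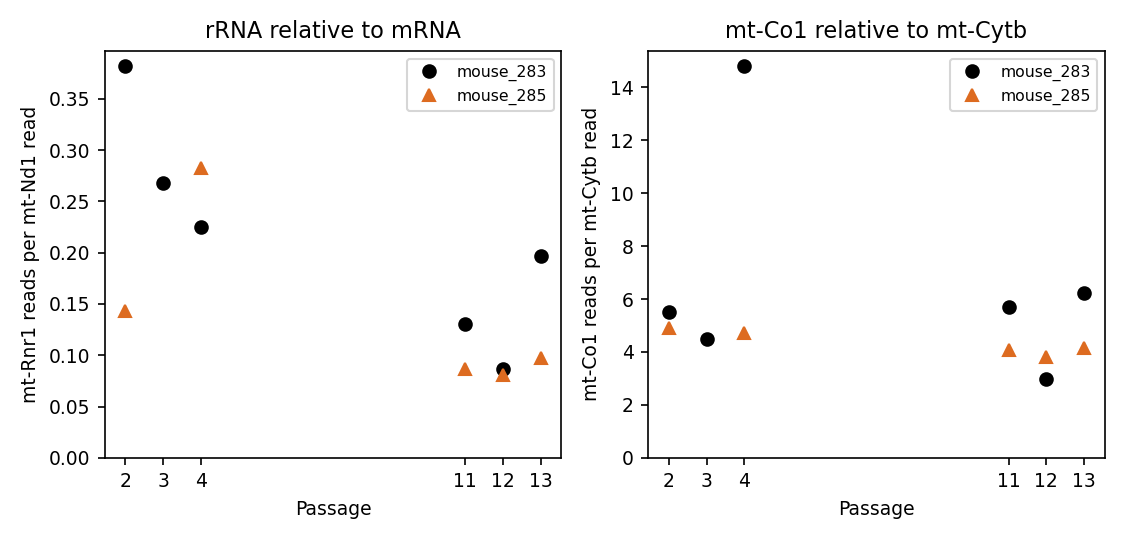
Points give reads of mt-Rnr1 per read of mt-Nd1 (left) and of mt-Co1 per read of mt-Cytb (right) by passage for both animals. The left ratio is 0.143 to 0.382 early and 0.081 to 0.197 late, and the right ratio is 14.8 at passage 4 of mouse_283 against 6.23 or less elsewhere.

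Within mouse_283 none of the 16 members passed by edgeR, against 201 of all genes (1.42%). At an unadjusted p below 0.05 by edgeR there were 5 members, against 2662 of 14172 genes (18.8%). DESeq2 passed mt-Co2 and mt-Atp6 there, beside 5.19% of all genes. The lowest adjusted p was that of mt-Co2, with a log2 estimate of 1.64 (SE 0.38, adjusted p = 0.06). Within mouse_285 none passed by edgeR or DESeq2, with 0 at an unadjusted p below 0.05, and edgeR passed 0 of all genes (0.0%, 762 at an unadjusted p below 0.05; DESeq2 passed 74). mt-Co2 there had an estimate of 0.69 (SE 0.42, adjusted p = 0.993). The interaction of stage and animal, which tests whether the stage effect differed between the animals, passed for 0 of the 16 members and 0 of all genes by edgeR (0.0%). At an unadjusted p below 0.05 it held 0 members and 302 genes, and DESeq2 passed 0 members and 16 genes. Its estimate for mt-Co2 was -0.95 (SE 0.55, adjusted p = 0.99). Without passage 2 of mouse_283, the interaction passed for mt-Rnr1 (-1.30, SE 0.35, adjusted p = 0.0233), beside 16.5% of all genes.

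Stages were also compared by overlap. Every late library was above every early library in mouse_283 for 5 members, mt-Co2, mt-Atp8, mt-Atp6, mt-Nd3 and mt-Nd6, against 9.42% of all tested genes. In mouse_285 this held for 6, mt-Nd1, mt-Co1, mt-Co2, mt-Atp6, mt-Nd5 and mt-Cytb, against 22.8%. There mt-Rnr1 was below in every late library, a direction for which no share of all genes was counted. Every late library was above every early one in both animals for 2 members, mt-Co2 and mt-Atp6, against 4.95% of all tested genes.

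Between the animals, mouse_285 against mouse_283 with the stage in the model, 0 of the 16 members passed by edgeR or by DESeq2. Of 14172 genes 11 passed by edgeR (0.0776%) and 126 by DESeq2 (0.889%). At an unadjusted p below 0.05 by edgeR there were 2 members and 730 genes (5.15%). The highest estimates were those of mt-Nd4l (1.03, SE 0.42, adjusted p = 0.798), mt-Atp8 (0.88, SE 0.51, adjusted p = 0.891) and mt-Nd3 (0.78, SE 0.31, adjusted p = 0.786). They rested on 7 to 55, 2 to 53 and 23 to 198 reads per library. The median of the 16 was 0.36.

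Of the 22 tRNA genes, 21 had no read in the unstranded column of any library. With 3 counts as the limit that a count of 0 allows, counted reads were under 0.104 to 0.199 CPM per gene and library. This sets no limit on the level of these tRNAs, since a read that also touches a neighbouring gene is ambiguous and is not counted. The only tRNA gene with reads in the unstranded column was mt-Tp, the proline tRNA, at 13.9 to 102 CPM. It was highest in passage 2 and lowest in passage 3 of mouse_283. Its late levels were 35.3 to 54.2 CPM, and the log2 estimate was 0.01 (SE 0.34, adjusted p = 0.99). Its sequence of 67 bases, on the strand opposite to most genes, is given as the only tRNA counted.
mt-Tp: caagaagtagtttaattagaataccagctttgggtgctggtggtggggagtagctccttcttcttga
In the strand columns, 7 more tRNA genes had at least 10 reads in every library: mt-Tq, mt-Tw, mt-Ta, mt-Ty, mt-Ts1, mt-Te and mt-Tt. All 7 lie next to a gene of the opposite strand, as do 11 of the 22 tRNA genes. STAR leaves a read that touches genes on both strands out of the unstranded column as ambiguous and assigns it in a strand column. Of the other 14, 11 had no read in any column and 3 had at most 2 reads in a library. When a strand column was tested in place of the unstranded one, 23 members entered the fit and none of these tRNA genes passed late against early.

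The same counting bears on mt-Nd6, the only protein gene on the strand opposite to the others, which overlaps mt-Nd5 by 14 bases. The unstranded column held 41.7% to 55.9% of the reads in the strand columns for mt-Nd6, 74.4% to 86.7% for mt-Nd5 and 72.6% to 87.0% for mt-Tp, and at least 98.2% for the other 11 tested genes with a value. Only genes and libraries with at least 100 stranded reads were taken, which left out mt-Atp8 and mt-Nd4l. As the libraries do not keep strand, a read from mt-Nd6 and one from an antisense transcript cannot be told apart, and the level of mt-Nd6 is uncertain.

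Reads of an unstranded library are split about evenly between the strand columns. The first strand column held 49.4% to 50.0% of the stranded reads of the 37 genes in 10 libraries, and 56.2% in passage 11 of mouse_285. In that library mt-Nd5 reached 59.9% and mt-Nd2 59.6%, against at most 50.8% and 51.5% in the others. mt-Nd6 and mt-Tp, encoded on the opposite strand, went the other way, with 40.6% and 42.1%. The rRNAs, with 54.4% and 54.8%, and mt-Co1, with 54.99%, departed least among the main-strand genes with at least 1000 stranded reads in all 11 libraries. mt-Co2 and mt-Co3 had fewer reads and departed in other libraries too. For mt-Co2 the share was 32.5% to 50.3%, and its 95% Wilson interval lay below 50% in 9 of 11 libraries, 37.5% in passage 12 of mouse_283 among them. In passage 11 of mouse_285 mt-Co2, though a main-strand gene, was at 41.7% (38.9% to 44.5%), on the side of mt-Nd6 and mt-Tp. The main-strand gene mt-Nd3 was at 49.0% there (42.1% to 55.9%). For mt-Co3 the share was 39.1% to 55.5%, with the interval below 50% in 5 of 11 libraries and above it in passage 11 of mouse_285. With the first strand column in place of the unstranded one, mt-Co2 did not pass late against early, while 2.69% of all genes did. With the second it passed, beside 2.78% of all genes. Beyond these fits, the part of this split in the late change of mt-Co2 was not tested.

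Base composition also differed between these genes. The main-strand protein genes hold far fewer G than C, with 8.0% G and 27.7% C in mt-Nd2, and mt-Nd6 the reverse, with 28.1% G and 6.0% C. The rRNAs are closer to balance, with 16.1% G and 19.7% C in mt-Rnr1. The first 60 bases of the pair show it, with each G in capitals.
mt-Nd2: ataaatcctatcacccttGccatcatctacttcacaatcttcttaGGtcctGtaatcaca
mt-Nd6: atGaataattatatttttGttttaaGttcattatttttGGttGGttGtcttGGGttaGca
mt-Nd2 has 4 G and 19 C in this window, and mt-Nd6 12 G and 3 C. Nuclear genes of that library departed from an even split too. Over 4876 nuclear genes, the share of reads in the first strand column and the excess of G over C in the transcript had Pearson's r of -0.57 (Spearman's rho -0.58), with r from -0.01 to 0.07 in the other 10, a description across genes that share the library. In that library 418 nuclear genes had a share outside 45% to 55%, against 7 to 18 in the others. The part of this in the levels of the 37 genes was not tested. Their share of gene reads in that library, 5.06%, lay within the late range. Without this library mt-Co2 did not pass, as in 9 of the other 10 fits that left out a library.

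**Figure D5:**
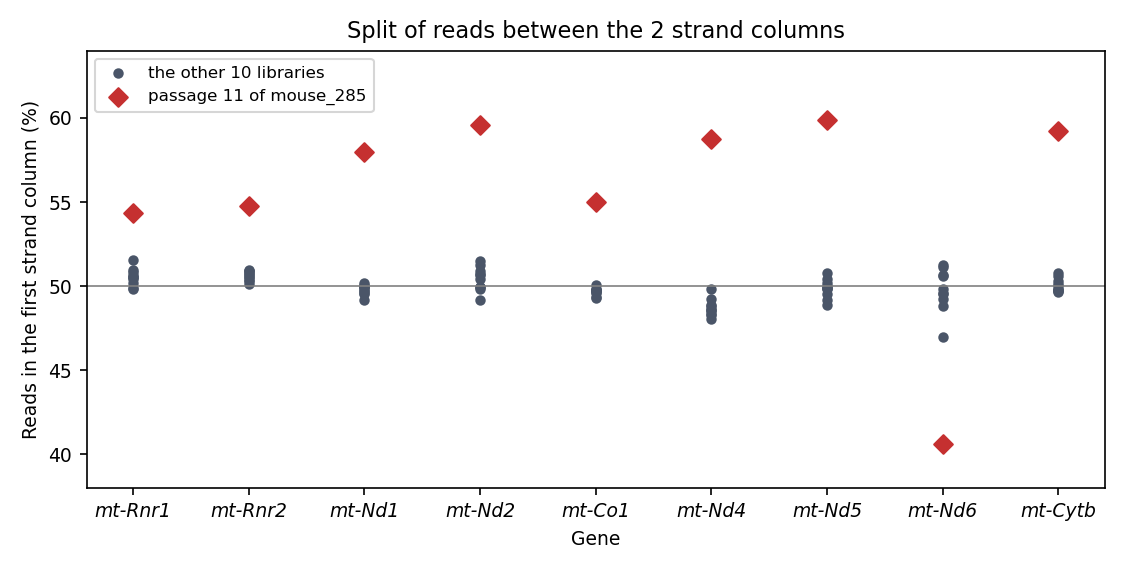
Points give the percent of a gene's stranded reads in the first strand column for 9 genes, in passage 11 of mouse_285 (diamonds) and in the other 10 libraries (circles). In passage 11 of mouse_285 the 8 main-strand genes shown are at 54.4% to 59.9% and mt-Nd6 is at 40.6%.

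Nuclear genes that act on these transcripts were taken from lists. Late against early, 23.6% of all genes had an unadjusted p below 0.05 by edgeR, and DESeq2 passed 9.48%. By edgeR 3.05% of all genes passed, 5.32% with GC and length offsets and 4.76% without passages 3 and 4 of mouse_283. The counts for the lists stand beside these shares. Of 14 genes of mitochondrial DNA replication, 14 were tested and 1 rose, Mgme1, an exonuclease that trims DNA ends in replication. Its early mean was 15.7 ± 6.16 CPM (SD, n = 5) and its late mean 30.4 ± 2.74 CPM (SD, n = 6), a log2 difference of 0.84 (SE 0.21, adjusted p = 0.045). It also passed with GC and length offsets (0.73, adjusted p = 0.0106), and when passages 3 and 4 of mouse_283 were left out (0.67, adjusted p = 0.0485). The list's median was 0.08. Twnk, the replicative helicase, had an estimate of 0.16 (SE 0.16, adjusted p = 0.511). None of 11 genes for packaging and transcription passed by edgeR, and 4 had an unadjusted p below 0.05. DESeq2 passed 2 of them, Mterf1a and Mterf1b of the transcription termination family. The list's median was 0.47, and 0.09 with the offsets. Tfam, which packages mitochondrial DNA and starts its transcription, averaged 52.1 ± 24.6 CPM (SD, n = 5) in early and 81.4 ± 5.07 CPM (SD, n = 6) in late libraries (0.54, SE 0.22, adjusted p = 0.174). Polrmt, the RNA polymerase, averaged 61.0 ± 10.5 CPM (SD, n = 5) in early and 48.7 ± 4.90 CPM (SD, n = 6) in late libraries (-0.49, SE 0.19, adjusted p = 0.157).

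None of 35 genes for processing, stability and decay of mitochondrial RNA passed by edgeR, with a median of 0.19. At an unadjusted p below 0.05 there were 7, against 23.6% of all genes. DESeq2 passed 2, Trmt10c and Fastkd5, both of precursor processing. Elac2, which cuts the end of tRNAs out of the precursors, had an estimate of -0.24 (SE 0.18, adjusted p = 0.399). Lrpprc, which binds and stabilises mitochondrial messenger RNAs, had 0.65 (SE 0.29, adjusted p = 0.203). None of 12 regulators of mitochondrial biogenesis passed by edgeR in all libraries (4 at an unadjusted p below 0.05), and DESeq2 passed Esrrg, a nuclear receptor, as lower. Ppargc1a, a coactivator of that programme, averaged 7.82 ± 6.46 CPM (SD, n = 5) in early and 3.65 ± 1.82 CPM (SD, n = 6) in late libraries (-1.22, SE 0.48, adjusted p = 0.162). It fell with GC and length offsets (-1.63, adjusted p = 0.00386), and when passages 3 and 4 of mouse_283 were left out (-1.71, adjusted p = 0.0106). In these fits 5.32% and 4.76% of all genes passed. With the offsets Esrrg also fell (adjusted p = 0.0404), Myc, a transcription factor of growth and biogenesis, rose (0.67, adjusted p = 0.0458), and so did Trmt10c of the processing list (0.66, adjusted p = 0.0287).

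The nuclear partners of the mitochondrially encoded subunits had medians of the other sign. Positive estimates were found for 6 of 36 nuclear complex I genes, 1 of 9 of complex III, 1 of 11 of complex IV and 3 of 15 of ATP synthase. The median log2 change was -0.31 for complex I, -0.27 for complex III, -0.27 for complex IV and -0.37 for ATP synthase, with none past the threshold by edgeR or DESeq2, against 0.89 for the 13 mitochondrially encoded ones. The 4 genes of complex II, which has no mitochondrially encoded subunit, had a median of -0.42, and 76 mitochondrial ribosomal proteins a median of -0.17. At an unadjusted p below 0.05 by edgeR there were 6 of complex I, 2 of complex II, 2 of complex III and 0 of complex IV. There were 2 of ATP synthase and 3 ribosomal proteins, against 23.6% of all genes. DESeq2 passed 2 ribosomal proteins, Mrpl47 and Mrpl50. Without passages 3 and 4 of mouse_283 these medians turned positive for complex I (0.11), III (0.15), IV (0.12), ATP synthase (0.02) and the ribosomal proteins (0.15), while that of complex II was -0.13. With GC and length offsets they were -0.46 to -0.27. Leaving out other libraries was not tried for these lists, and the difference between both sets was not tested. The 4 listed nuclear copies with a row in the tables had a median of 1.17. Gm13341, the copy of mt-Co2, had 1.40 (SE 0.36, adjusted p = 0.0584 by edgeR). DESeq2 passed Gm13341. With the offsets the median of the 4 was 0.46 and Gm13341 had 0.65 (adjusted p = 0.0989), next to 0.47 for mt-Co2.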

How the data were processed

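The authors deposited STAR gene counts per library, with an unstranded column and 2 strand columns. The tools were Trimmomatic and STAR and the build mm9, per the submitters' processing notes, and versions and annotation are not given in the sources used here. Groups came from the titles, and 32620 identifiers were matched to symbols. CPM are counts of the unstranded column scaled to the total of gene reads. Genes passing filterByExpr by animal and stage (14172) were tested in R 4.3.3 with edgeR 4.0.16 (TMM, quasi-likelihood F test, two-sided, animal as a term, Benjamini-Hochberg, threshold 0.05), with DESeq2 1.42.0 as an alternative. SE is the log2 change divided by the square root of F. Offsets for GC content and length were fitted in each library as natural splines (5 degrees of freedom). Copies were sought with BLASTN 2.17.0. The procedure was tested on simulated data. No pair of libraries was a duplicate (smallest chi-square per degree of freedom 14.2). All protein and rRNA genes are named, tRNAs from a mean of 10 CPM, and per list up to 2 genes past the threshold plus Tfam, Polrmt, Twnk, Elac2, Lrpprc and Ppargc1a. Members and lists were chosen with earlier results of these data known. Sequences and lengths are from GENCODE M21, and positions on chromosomes are not given because its build differs from the files'.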

Additional observations from a re-analysis of the deposited data

Results flagged for a closer look

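Of 46 values checked per stage for a library far from the rest of its group, 4 were marked, and chance marks about 1 in 20. mt-Atp8 was 1.25 CPM in passage 4 of mouse_285, and at most 0.41 CPM in the other early libraries. Reads of mt-Co1 per read of mt-Cytb were 14.8 in passage 4 of mouse_283, and at most 5.52 in the other early libraries. Reads of mt-Nd6 per read of mt-Cytb were 0.111 in passage 12 of mouse_283, and at most 0.0749 in the other late libraries. The share of stranded reads of the 37 genes in the first strand column was 56.2% in passage 11 of mouse_285, and at most 49.8% in the other late libraries.

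Reads appeared in the strand columns, which the comparisons of the report did not use except as alternatives, for tRNA genes at 0 in the unstranded column. Summed over both strand columns and all 11 libraries there were 735 reads for mt-Tq, 1372 for mt-Tw, 1319 for mt-Ta, 1139 for mt-Ty, 2717 for mt-Ts1, 2357 for mt-Te and 663 for mt-Tt.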

How the results depend on the processing

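The count of members past the threshold late against early, 1, was 0 with library totals as the scale, with at least 5 CPM in at least 5 libraries, with the first strand column, with no replicate block (no animal term), with GC and length offsets, and with the filter by stage. It was 2 with DESeq2, 9 without a low-count filter (7.74% of all genes passed), 7 without passage 2 of mouse_283 and passage 11 of mouse_285 (28.5% of all genes; this and the filter by stage were chosen after seeing the data), and 0 to 7 when each library was left out, 7 without passage 2 of mouse_283 (34.7% of all genes). With the second strand column it was 1, mt-Co2. Without passages 3 and 4 of mouse_283 it was 1, then mt-Rnr1. Within mouse_283 the count, 0, was 2 with DESeq2 (5.19% of all genes passed) and 9 without a low-count filter (6.16%). It was 8, all higher late, without its passage 2 and passage 11 of mouse_285 (52.6% of all genes). When each library was left out it was 0 to 11, 11 without passage 2 of mouse_283 (54.8% of all genes). Leaving out its passages 3 and 4 left 1 early library, which is assumed to vary like the other groups, so only estimates are given. They were -1.48 for mt-Rnr1 and -1.15 for mt-Tp. For the interaction the count, 0, was 1 without passage 2 of mouse_283 and passage 11 of mouse_285 (11.5% of all genes). It was 0 to 1 when each library was left out, 1 without passage 2 of mouse_283 (16.5% of all genes). The counts within mouse_285 and between the animals were 0 in all 23 alternatives. The median change of 0.86 was 0.24 with GC and length offsets and 0.61 to 1.06 with each library left out. The difference in share was 0.998 points without passages 3 and 4 of mouse_283, a setting also added after seeing the data.

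Of 382 values of single members under alternatives, 324 kept direction and side of the threshold, 17 (mt-Co2) lost the call, 22 gained it and 19 turned in sign. With GC and length offsets mt-Rnr2 was -0.47, mt-Co1 -0.01, mt-Co3 -0.51 and mt-Tp -0.44. Without passages 3 and 4 of mouse_283 mt-Rnr2 was -0.33 and mt-Tp -0.33. With no replicate block mt-Tp was -0.03. mt-Rnr1 was 0.23 when passage 11 of mouse_285 and passage 2 of mouse_283 were left out. With each library left out the values ran from -0.65 to 0.15 for mt-Rnr1, from -0.16 to 0.43 for mt-Rnr2 and from -0.15 to 0.49 for mt-Tp. The cause of these changes was not tested. Depth limits mt-Atp8 and mt-Nd4l, both under 5 CPM in every library, and mt-Nd3, with a mean of 4.76 CPM.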
